A study of Mus musculus with 6 samples.

Results

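The 45 genes described here encode the acid hydrolases, membrane proteins and proton pump of the lysosome, together with the transcription factors Tfeb and Tfe3. They were taken by gene name from a list drawn up from general knowledge of the organelle, at a time when earlier results of these data were known. All 45 had a row among the 17110 genes of the authors' deposited table. The study sorted mouse embryonic stem cells of the line labelled TG2A by a fluorescent reporter of MERVL, an endogenous retrovirus that marks a state resembling the embryo after its first cleavage. The reporter-positive group (DsRed2+) and the reporter-negative group (DsRed2-) held 3 samples each, and both carried the genotype given as MERVL::Fluorescent protein and grew in serum and leukemia inhibitory factor. Replicates came from different collection dates, and poly(A) RNA was sequenced. The authors' deposited table gives 1 log2 fold change and 1 standard error (SE, printed after ±) per gene for the groups compared, and it does not name the groups or say which is the numerator, so signs below are as deposited. The p-values measure the spread between these samples of 1 line. Values per library, library depth and collection date were not analysed here.

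The lysosome degrades proteins, glycans, lipids and nucleic acids that reach it by endocytosis and autophagy. Its enzymes work at acid pH, which is kept by a proton pump (the V-ATPase) made of a membrane sector (V0) and a catalytic sector (V1). Heavily glycosylated membrane proteins such as Lamp1 and Lamp2 line its wall, and transporters such as Npc1 and Mcoln1 export lipids and ions. Many of its genes share a promoter element, the CLEAR motif, bound by the MiT/TFE factors Tfeb, Tfe3, Mitf and Tfec, which in well-fed cells are held in the cytoplasm by mTORC1 at the lysosomal surface.

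The promoter sequences of this element are shown first, because Tfeb is among the genes that differed between the groups. RefSeq promoters (build GRCm38.p6) from 250 bases before to 50 bases after each start site matched 37 of the 45 genes by symbol, with 43 promoters among them. The submitters' processing notes name GRCm39, so these coordinates serve only to place the sequences, and values were joined by gene symbol. The CLEAR core TCACGTGA, which reads the same on both strands, occurred in 7 of the 43 promoters (16.3%) and in 320 of 32851 promoters of the same length (0.974%). The E-box CACGTG, which lies inside the CLEAR core, occurred in 13 of the 43 promoters (30.2%) and in 7.15% of all promoters. The motif is known as an element that many lysosomal genes share, so its higher share here is not a separate result. Such a match is a description of letters and does not show that a factor was bound. The sites in 7 genes are printed with 10 flanking bases on each side, 5′ to 3′ on the strand of the gene, and the capitals mark the CLEAR core. Ctsa and Gla each held a pair of sites, and for those genes the site farther upstream is shown.
Ctsa (GRCm38.p6 chr2:164833750-164833777, plus strand): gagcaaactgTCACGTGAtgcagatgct
Ctsd (chr7:142387909-142387936, minus strand): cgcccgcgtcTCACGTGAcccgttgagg
Gla (chrX:134601216-134601243, minus strand): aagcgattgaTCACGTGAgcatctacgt
Mcoln1 (chr8:3500463-3500490, plus strand): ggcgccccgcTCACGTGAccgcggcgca
Cln3 (chr7:126583341-126583368, minus strand): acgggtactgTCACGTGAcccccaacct
Atp6v0d1 (chr8:105566051-105566078, minus strand): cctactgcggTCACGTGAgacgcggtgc
Atp6v1a (chr16:44139374-44139401, minus strand): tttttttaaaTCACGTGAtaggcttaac

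In Glb1, Ctsl and Lamp1 the promoter held the E-box but not the full CLEAR core. The printed sites of Glb1 and Lamp1 keep the first T of the core and lack its last A, and the Ctsl site lacks both. These genes are shown because Glb1 and Ctsl were called in opposite directions and Lamp1, with a cluster of such sites, was the most abundant gene of the list per kilobase of transcript. The capitals mark the E-box, and for Lamp1 the site nearest to the start is given.
Glb1 (GRCm38.p6 chr9:114401020-114401045, plus strand): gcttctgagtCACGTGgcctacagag
Ctsl (chr13:64370741-64370766, minus strand): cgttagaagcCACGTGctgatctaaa
Lamp1 (chr8:13159136-13159161, plus strand): gtgaccacatCACGTGcggaacggag

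Glb1, Manba and Tfeb were called with estimates over 2-fold in the positive direction, and Ctsc with one over 2-fold in the negative direction. The 95% intervals of these genes all reached below 2-fold. Most of the other lysosomal genes gave no call. With the adjusted p-value of the authors' deposited table held under 0.05, 10 of the 45 genes (22.2%) were called, against 30.5% of all genes. Positive calls numbered 5 (Glb1, Manba, Tfeb, Gusb and Scarb2), against a background of 14.6%, and negative calls also numbered 5 (Ctsc, Ctsl, Smpd1, Lipa and Laptm4a), against 15.9%. Past the authors' limit of 0.5 on the log2 scale, the authors' deposited table called 3 genes up (9.40% of all genes) and 4 genes down (12.1% of all genes). The median log2 fold change of the 45 genes was -0.13, and that of all genes was 0.0097. For 23 of the 45 genes (51.1%) the 95% interval, computed from the deposited standard error, lay wholly between -0.5 and 0.5, as it did for 33.0% of all genes. Such intervals need precise values, and the lysosomal genes were more abundant than all genes, with a median mean count of 1307 against 394.2. Among genes whose mean count reached 300, the intervals of 23 of 36 lysosomal genes (63.9%) and of 58.9% of all genes lay inside those limits. When ribosomal protein genes were set to 0, which shifts every value by 0.093, there were 4 positive calls (10.9% of all genes) and 10 negative calls (20.5% of all genes). The positive share of the calls went from 50% to 28.6% among the lysosomal genes and from 47.8% to 34.7% over all genes.

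**Figure D1:**
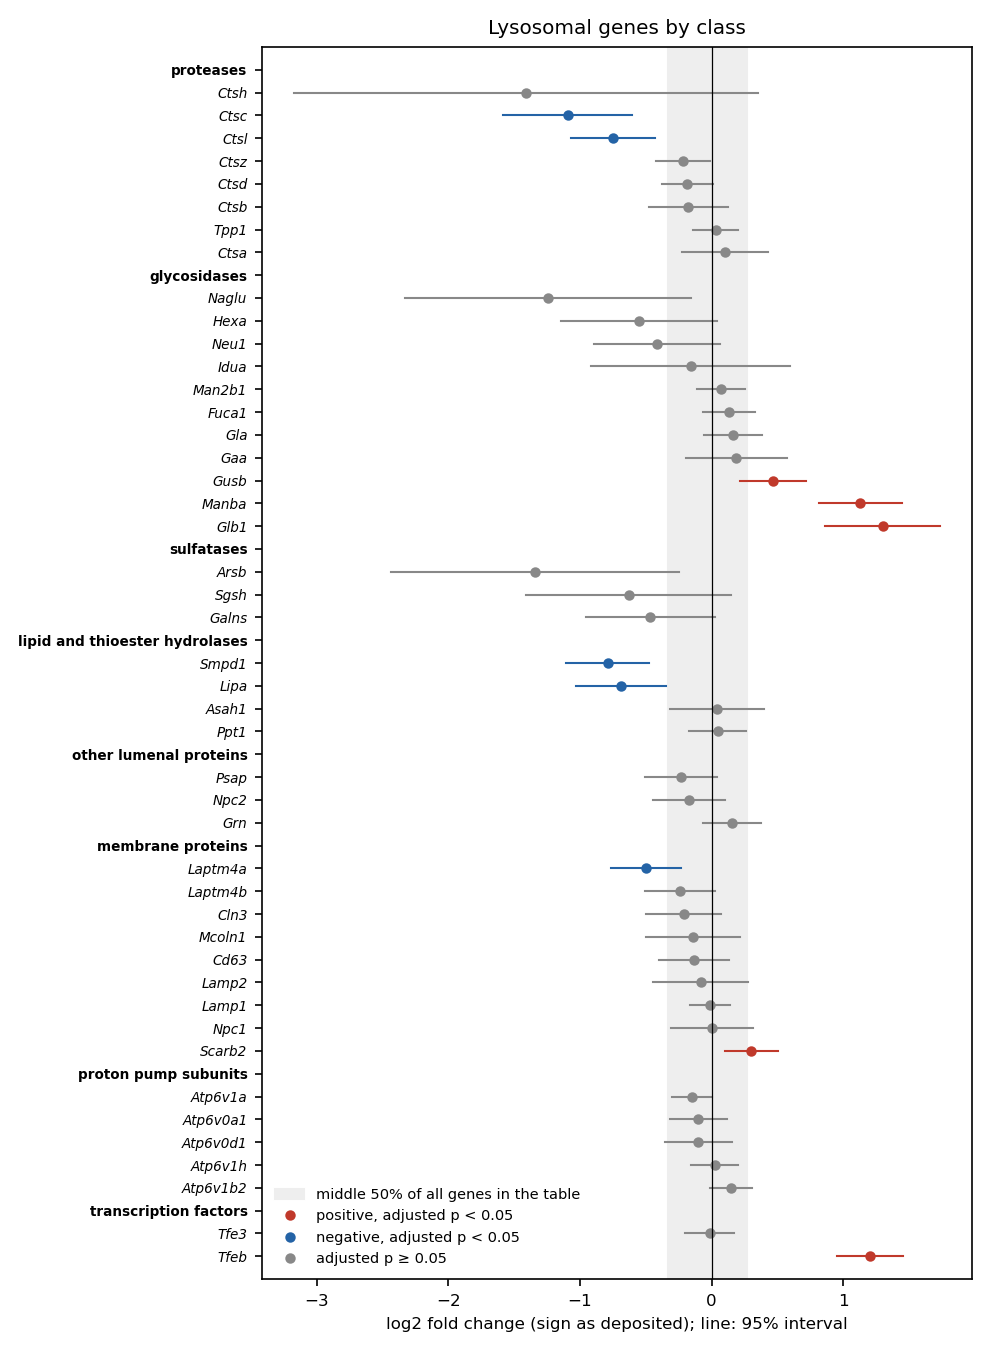
Log2 fold change (x axis, sign as in the authors' deposited table) of the 45 lysosomal genes by class, with 95% intervals from the deposited standard errors; the grey band holds the middle 50% of all 17110 genes. The called glycosidases Glb1, Manba and Gusb lie to the right of 0, the called proteases Ctsc and Ctsl and the lipid hydrolases Smpd1 and Lipa lie to the left, and all 5 proton pump subunits sit close to 0.

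The authors' deposited table called 7 of the 26 hydrolases (26.9%), against 30.5% of all genes, 3 of them positive and 4 negative, and their median was -0.18. The 3 called glycosidases were positive, and the 2 called proteases and 2 called lipid hydrolases were negative. These counts are small, no difference between classes was tested, and the further lysosomal proteases had 2 positive and 2 negative calls.

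Glycosidases, which cleave sugars from glycoproteins, glycolipids and glycosaminoglycans, had a median of 0.13 over 11 genes, from -1.24 in Naglu to 1.30 in Glb1. Glb1 (ENSMUSG00000045594), the acid β-galactosidase whose activity is stained as a marker of senescent cells, stood at 1.30 ± 0.22 (SE) in the authors' deposited table (adjusted p = 6.94e-08). This is a 2.46-fold difference, with a 95% interval from 1.82 to 3.32, at a mean normalized count of 1636. Manba (ENSMUSG00000028164), the β-mannosidase that cleaves the last mannose of N-glycan remnants, stood at 1.13 ± 0.16 (SE) in the authors' deposited table (adjusted p = 7.25e-11). Its difference was 2.19-fold, with an interval from 1.76 to 2.73. Gusb, the β-glucuronidase often used as a reference gene in quantitative PCR, had 0.46 ± 0.13 (SE) in the authors' deposited table (adjusted p = 0.00169), which is below the authors' limit.

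The other 8 glycosidases were not called. Among them, the α-mannosidase Man2b1 was nearest to 0, at 0.070 ± 0.094 (SE) in the authors' deposited table (adjusted p = 0.637), with an interval from -0.11 to 0.25 that includes only small differences. Man2b1 and Manba act on the same glycans, and their intervals did not overlap, but the difference between these genes was not tested. The α-fucosidase Fuca1 (0.13) and the α-galactosidase Gla (0.16) were likewise close to 0 in the authors' deposited table. The α-glucosidase Gaa had 0.19, with a wider interval from -0.20 to 0.57 that passes the authors' limit of 0.5. Hexa, the α subunit of β-hexosaminidase, had -0.55 and the sialidase Neu1 had -0.42 in the authors' deposited table. Their SEs of 0.30 and 0.24 leave a wide range of values possible. Neu1 and the protease Ctsa form a complex with the Glb1 product in the lysosome, so the members of this complex had values of -0.42, 0.10 and 1.30 in the authors' deposited table, and the last was called. Naglu (-1.24, standard error 0.55) and Idua (-0.16, standard error 0.39), both enzymes of glycosaminoglycan breakdown, were measured on mean normalized counts of 53.7 and 130.2 in the authors' deposited table.

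The sulfatases, which remove sulfate groups from glycosaminoglycans, were the least abundant class. Arsb, Sgsh and Galns stood at -1.34, -0.63 and -0.47 in the authors' deposited table, on mean normalized counts of 22.2, 68.1 and 126.2. None of the 3 passed the threshold of the authors' DESeq2 test, which 30.5% of all genes passed. Of the 3, 1 (Arsb, adjusted p = 0.0534) had an unadjusted p-value under 0.05.

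The 8 proteases centred on a median of -0.20, and 6 of the 8 values were negative. Ctsc (ENSMUSG00000030560), the dipeptidyl peptidase that activates serine proteases of immune cells, had -1.09 ± 0.25 (SE) in the authors' deposited table (adjusted p = 9.66e-05). The group in the denominator was thus higher by 2.14-fold, with an interval from 1.52 to 3.0, at a mean normalized count of 183.0. Ctsl (ENSMUSG00000021477), a cysteine endopeptidase that also clips histone H3 in differentiating mouse embryonic stem cells, had -0.75 ± 0.16 (SE) in the authors' deposited table (adjusted p = 3.79e-05). Its inverse fold was 1.68, with an interval from 1.35 to 2.10. Ctsl was an abundant transcript, with a mean normalized count of 6678 against 6586 for the aspartic protease Ctsd.

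The remaining proteases gave no call. Ctsd, Ctsb and Ctsz, of which Ctsd and Ctsz were called negative after centring on the ribosomal protein genes, stood at -0.19, -0.18 and -0.21 in the authors' deposited table. Their SEs were 0.099, 0.15 and 0.10. The tripeptidyl peptidase Tpp1 was nearest to 0, at 0.030 ± 0.086 (SE) in the authors' deposited table (adjusted p = 0.839), with an interval from -0.14 to 0.20. Ctsh had the lowest value of all 45 genes, -1.41, but on a mean normalized count of 6.68 and ± 0.90 (SE) in the authors' deposited table (adjusted p = 0.247).

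Of the 4 lipid and thioester hydrolases, 2 (50%) were called, both negative, against 30.5% of all genes called in either direction. Smpd1 (ENSMUSG00000037049), the acid sphingomyelinase, had -0.79 ± 0.16 (SE) in the authors' deposited table (adjusted p = 1.02e-05), an inverse fold of 1.73 with an interval from 1.39 to 2.15. Lipa (ENSMUSG00000024781), the acid lipase that frees cholesterol from its esters, had -0.69 ± 0.17 (SE) in the authors' deposited table (adjusted p = 0.000545), an inverse fold of 1.61 with an interval from 1.27 to 2.04. In the same class, the acid ceramidase Asah1 had 0.040 and the palmitoyl thioesterase Ppt1 had 0.047 in the authors' deposited table, and neither was called. Smpd1 makes the ceramide that Asah1 breaks down, and their 95% intervals, from -1.11 to -0.47 and from -0.32 to 0.40, did not overlap. The difference between these genes was not tested. Of the lumenal proteins that are not enzymes, the saposin precursor Psap had -0.23, the cholesterol carrier Npc2 had -0.17 and progranulin (Grn) had 0.15 in the authors' deposited table. None of these 3 passed the DESeq2 threshold, and 0 had an unadjusted p-value under 0.05.

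Membrane proteins had a median of -0.13 over 9 genes, and 2 (22.2%) were called, against 30.5% of all genes. Both called genes were below the authors' limit of 0.5. Laptm4a, a small transmembrane protein of late endosomes and lysosomes, had -0.50 ± 0.14 (SE) in the authors' deposited table (adjusted p = 0.00141). Its paralog Laptm4b stood at -0.24 ± 0.13 (SE) in the authors' deposited table and was not called. Scarb2, the receptor that carries β-glucocerebrosidase to the lysosome, had 0.30 ± 0.10 (SE) in the authors' deposited table (adjusted p = 0.0141), a call that was lost after centring on the ribosomal protein genes (adjusted p = 0.112, range over its alternatives 0.000226 to 1).

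The major protein of the lysosomal wall, Lamp1, had -0.012 ± 0.079 (SE) in the authors' deposited table, so that its 95% interval ran only from -0.17 to 0.14. The cholesterol exporter Npc1 was nearest to 0 of the class, at 0.0032 ± 0.16 (SE) in the authors' deposited table (adjusted p = 0.991). Lamp2, the tetraspanin Cd63, the calcium channel Mcoln1 and the Batten disease protein Cln3 lay between -0.21 and -0.084 in the authors' deposited table. Npc1 and Npc2 hand cholesterol to each other and had intervals from -0.30 to 0.31 and from -0.45 to 0.098.

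Among the 8 classes the proton pump had the narrowest range. Its 5 subunits lay between -0.15 (Atp6v1a) and 0.15 (Atp6v1b2) in the authors' deposited table (median -0.10). Of these, 0 passed the DESeq2 threshold or had an unadjusted p-value under 0.05, and 30.5% of all genes passed that threshold. After centring on the ribosomal protein genes 1 of the 5 subunits, Atp6v1a, was called negative at -0.24 (adjusted p = 0.00785), against 20.5% of all genes. All 5 intervals lay between -0.5 and 0.5, as did those of 58.9% of all genes whose mean count reached 300. The median SE was 0.092 for the subunits and 0.123 for those genes, and a smaller SE gives a narrower interval. Atp6v1a and Atp6v1b2 form the catalytic hexamer of the V1 sector, and their values of -0.15 and 0.15 had SEs of 0.078 and 0.083 in the authors' deposited table. The V0 subunits Atp6v0a1 and Atp6v0d1 had -0.10 each, in the authors' deposited table. The V1 subunit Atp6v1h was nearest to 0, at 0.024 ± 0.092 (SE) in the authors' deposited table (adjusted p = 0.884), with an interval from -0.16 to 0.20.

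The transcription factors had unlike values, and the difference between them was not tested. Tfeb (ENSMUSG00000023990) stood at 1.20 ± 0.13 (SE) in the authors' deposited table (adjusted p = 9.46e-20), the smallest adjusted p-value of the 45 genes. This is a 2.30-fold difference, with an interval from 1.94 to 2.73. Tfe3 (ENSMUSG00000000134), which in mouse embryonic stem cells is known for its part in the exit from pluripotency, had -0.015 ± 0.096 (SE) in the authors' deposited table (adjusted p = 0.933), and its interval ran from -0.20 to 0.17. Per kilobase of transcript, Tfe3 was the more abundant, with 1360 normalized counts per kilobase against 239.8 for Tfeb. The related factor Mitf had 1.71 ± 0.18 (SE) in the authors' deposited table (adjusted p = 8.06e-19), and Tfec was not analysed here.

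The 7 genes with the CLEAR core in the promoter lay between -0.21 (Cln3) and 0.16 (Gla) in the authors' deposited table (median -0.14), and 0 of them passed the DESeq2 threshold or an unadjusted p-value of 0.05. After centring on the ribosomal protein genes 2 of the 7, Ctsd and Atp6v1a, were called negative, against 20.5% of all genes. The 30 matched genes without it ranged from -1.34 to 1.30 around a median of -0.12, and 10 (33.3%) were called, close to the 30.5% of all genes. No difference between genes with and without the core was tested, and 7 genes are few against that background. Among the 13 genes with the E-box, including those 7, 2 were called, Glb1 (positive) and Ctsl (negative), against 30.5% of all genes. The promoters of Tfeb held neither motif in these windows. Tfeb moves between cytoplasm and nucleus, which RNA levels do not measure.

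**Figure D2:**
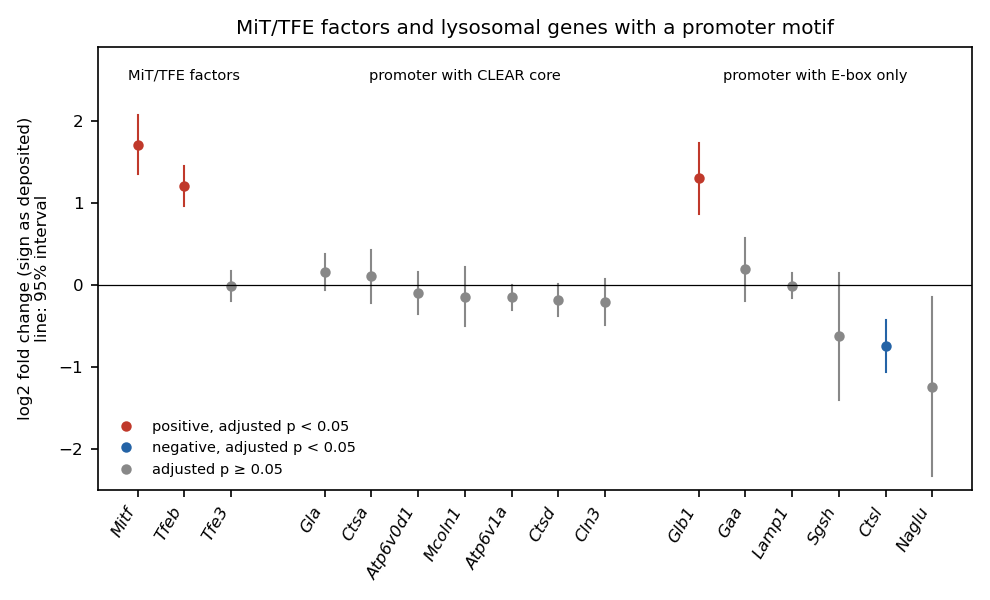
Log2 fold change (y axis, sign as in the authors' deposited table) with 95% intervals for the factors Mitf, Tfeb and Tfe3, the 7 lysosomal genes whose promoter holds the CLEAR core, and the 6 whose promoter holds only the E-box. Mitf and Tfeb lie at 1.71 and 1.20 and Tfe3 at -0.015, while the 7 CLEAR genes lie between -0.21 and 0.16.

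Transcript levels spanned a wide range. Divided by the length of the longest protein-coding transcript in GENCODE M21, the mean normalized count was highest for Lamp1 (6133 per kilobase), Ctsd (3096 per kilobase) and Laptm4a (3013 per kilobase). It was lowest for Ctsh (4.13 per kilobase) and Arsb (5.49 per kilobase). All 9 lysosomal genes with a mean normalized count under 300 had negative values in the authors' deposited table (median -0.79), and 3 of them (33.3%) were called, against 28.2% of all genes at that level. Over all genes under that level 54.0% had negative values, with a median of -0.074. The further lysosomal genes described below did not repeat this: of 27 under that level, 17 (63.0%) had negative values, with a median of -0.16, and 4 were called positive and 3 negative. The 36 lysosomal genes at or above it had a median of -0.013, with 5 positive and 2 negative calls (19.4%, against 32.4% of all genes at that level). That level of 300 counts was chosen after the values were seen. Compared with all genes in the same decile of mean count, 24 of the 45 genes lay between the quartiles, 16 below and 5 above.

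**Figure D3:**
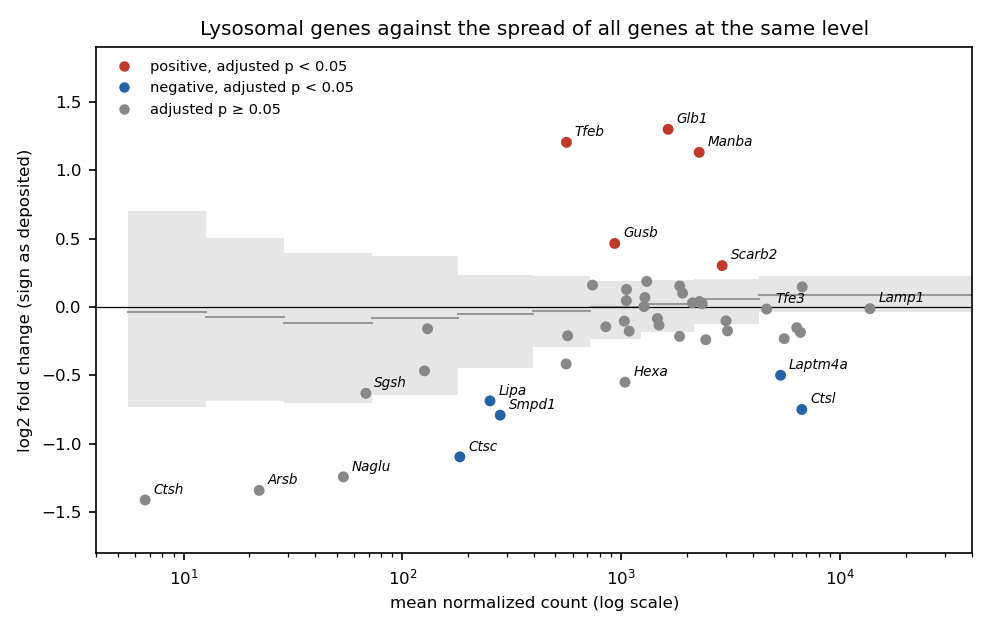
Log2 fold change (y axis, sign as in the authors' deposited table) against mean normalized count (x axis, log scale) for the 45 lysosomal genes; grey boxes span the quartiles, and grey lines the medians, of all genes in each decile of mean count. Tfeb, Glb1 and Manba stand above the boxes between 562 and 2268 counts, and the 9 genes under 300 counts are all below 0.

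Other genes of the lysosome were examined through lists of the same pathway, of which 118 of 134 genes had a row used here. Of these 118 genes 38 (32.2%) were called in the authors' deposited table, 16 positive and 22 negative, against 30.5% of all genes. Among the other proton pump subunits, 3 of 15 (20%) were called. Each of the 3 has a sister gene for the same place in the complex. Atp6v0a4, an a-subunit form of kidney and inner ear, had 1.89 ± 0.49 (SE) in the authors' deposited table (adjusted p = 0.000682). Tcirg1, the a-subunit form of osteoclasts, had -0.97 ± 0.18 (SE) in the authors' deposited table (adjusted p = 1.56e-06). Atp6v0e2 had -0.64 ± 0.19 (SE) in the authors' deposited table (adjusted p = 0.004). The a-subunit forms Atp6v0a1 and Atp6v0a2 had -0.10 and -0.11 in the authors' deposited table and were not called.

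Among the other proteases, 4 of 7 (57.1%) were called, against 30.5% of all genes. The cathepsin Ctsf had 0.71 and the carboxypeptidase Scpep1 had 0.58 in the authors' deposited table, while the cathepsin Ctso had -3.27 on a mean normalized count of 12.2 and the carboxypeptidase Prcp had -0.57. Of 28 other hydrolases, 6 (21.4%) were called, against 30.5% of all genes, 1 positive and 5 negative. The acid nuclease Dnase2a stood at 0.85 in the authors' deposited table, with Arsa, the arylsulfatase of sulfatide breakdown, at -0.90 and the phospholipase-like Plbd1 at -1.34. Cathepsin inhibitors had 3 calls among 4 genes with a row (75%, against 30.5% of all genes). Cystatin C (Cst3) had -0.63, Serpinb6a had -0.62 and Serpinb1a had 2.08 in the authors' deposited table, the last on a mean normalized count of 9.31.

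Other membrane proteins held the highest value of these lists. In this list 4 of 26 genes were called positive and 7 negative (42.3% called, against 30.5% of all genes). The metal transporter Slc11a1, known from phagosomes of macrophages, had 4.11 ± 0.35 (SE) in the authors' deposited table (adjusted p = 1.15e-29), at a mean normalized count of 148.2. The nucleoside transporter Slc29a3 had 1.93 ± 0.13 (SE) in the authors' deposited table (adjusted p = 1.17e-45). On the negative side, the cobalamin transport protein Lmbrd1 had -0.72 and Litaf had -0.71 in the authors' deposited table. Laptm5, a relative of Laptm4a and Laptm4b named here after its value was seen, had 1.34 ± 0.16 (SE) in the authors' deposited table (adjusted p = 1.18e-14). Laptm4a was called negative, Laptm4b was not called, and no difference within this family was tested.

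Genes that sort enzymes to the lysosome were mostly uncalled, with 1 positive and 2 negative calls among 16 (18.8%, against 30.5% of all genes). The adaptor Gga2 had 0.33, the sorting receptor Sort1 had -0.52 and Cln6 had -0.80 in the authors' deposited table. The mannose 6-phosphate receptors M6pr and Igf2r, chosen for mention after their values were seen, had -0.0043 and 0.040 in the authors' deposited table. In the list around mTORC1 and the MiT/TFE factors, 6 of 22 genes were called positive and 2 negative, against 14.6% and 15.9% of all genes. Next to Mitf, the GTPase Rragd had 0.49 in the authors' deposited table. Zkscan3, a repressor of autophagy genes, had -0.41 and Ppp3cb, a subunit of the phosphatase that acts on Tfeb, had -0.36 in the authors' deposited table.

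**Figure D4:**
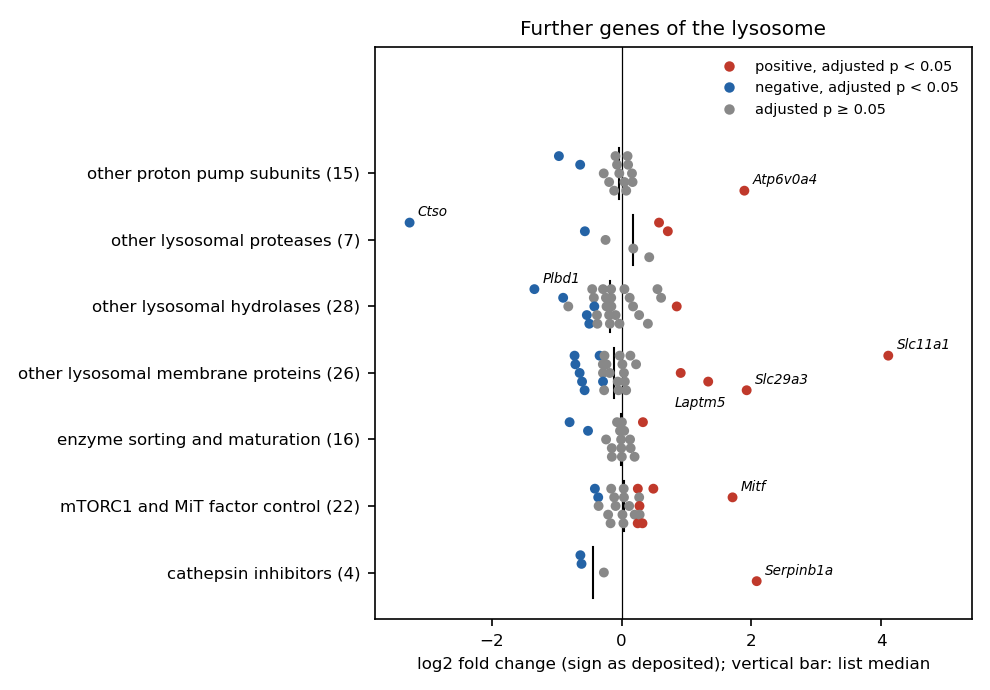
Log2 fold change (x axis, sign as in the authors' deposited table) of 118 further lysosomal genes in 7 lists, with 1 point per gene, the number of genes in brackets and a vertical bar at each list's median. Medians lie between -0.44 (cathepsin inhibitors) and 0.18 (other proteases), and the highest point is Slc11a1 at 4.11.

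The 3 genes with a row on each side of every called lysosomal gene were read in the gene order of GENCODE M21. Of these 60 neighbours of 10 genes, 22 (36.7%) were called, 12 in the direction of the lysosomal gene and 10 in the other, against 30.5% of all genes. Crtap and Tmppe, which flank Glb1 among the genes with a row, had 0.91 and 0.78 with standard errors of 0.13 and 0.21 in the authors' deposited table, and both were called (adjusted p = 1.06e-10 and 0.000983). Tmppe shares 165 exon bases with Glb1 on the same strand, so reads there could be assigned to either gene. Of the 6 nearest genes around Tfeb (3 on each side), Pgc (1.80), Foxp4 (0.89) and Treml2 (2.01) were called positive and Mdfi (-0.81) negative in the authors' deposited table. Laptm4a had 2 negative neighbours, Rhob at -1.55 and Sdc1 at -0.67 in the authors' deposited table. Scarb2 had 3 called neighbours, all of opposite sign, among them Cxcl10 at -3.12 and Stbd1 at -2.53 in the authors' deposited table. Ctsc and Lipa each had 1 called neighbour of their own sign and 2 of the other. Both called neighbours of Manba were of opposite sign: Slc39a8 stood at -4.34 and Cisd2 at -0.34 in the authors' deposited table. Of the 45 genes, 12 share exon bases with another gene of the table, among them Ctsd, Ctsb, Ctsa and Lamp1, and reads there could be assigned to either gene. For Glb1 and Ctsd the shared bases lie on the same strand, so strand would not tell them apart. For the others of these 12 the partner is on the opposite strand, and whether counting used strand is not given in the sources used here. Some genes overlap only partners without a row. Among them, the called Ctsl shares 395 exon bases on the same strand with the processed pseudogene Gm49230. It also shares 1742 with Gm47123 on the opposite strand.

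Markers of cell types were read in the same comparison. Of 9 pluripotency markers with a row, 8 had positive and 1 had negative values in the authors' deposited table. Of the 9, 6 (66.7%) were called, all positive, against 30.5% of all genes called in either direction. The mean normalized counts of the 9 lay between 2822 and 38163, so the defining markers of the labelled cells were present. Trophectoderm markers had negative values in 6 of 6 genes with a row (4 called, 66.7%). Values were also negative for fibroblast markers in 5 of 6 (4 called, 66.7%) and primitive endoderm markers in 5 of 5 (1 called, 20%). No positive value was called in these lists, and 15.9% of all genes were called negative. The medians of the lists were -3.09, -1.81 and -0.88. Their median mean normalized counts were 928.2, 51.5 and 14.7, so the fibroblast and primitive endoderm values rest mostly on weakly detected genes. Of 8 macrophage markers, Itgam alone had a row used here, at 1.84 on a mean normalized count of 23.1 in the authors' deposited table. The part of these cell types in the lysosomal values was not tested. In sorted bulk samples, fewer cells of a type and less RNA per cell cannot be told apart.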

How the data were processed

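Bulk RNA sequencing compared 3 DsRed2+ with 3 DsRed2- samples. The submitters' processing notes name FastQC 0.12.1, Trimmomatic 0.39, STAR 2.7.11b, RSEM 1.3.3, DESeq2 1.45.3 and the build GRCm39, with no roles stated. All gene values come from the authors' deposited comparison table, whose columns carry the names of DESeq2 output per the file headers. Its mean normalized count is a signal over all libraries as deposited by the authors. Fold changes and their standard errors were deposited as log2 values. The statistic, also from the authors, is a score equal to their ratio within 5.77e-07. The p-value and adjusted p-value were used as deposited. A table of counts with 6 columns was not used, because its column names match no sample label, so the planned edgeR fit was not made.

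Intervals are the fold change ± 1.96 standard errors, a normal approximation. The members, lists and classes were chosen with earlier results of these data known. Full statistics were given for members past the authors' limit, for Tfeb and Tfe3, and for the member nearest 0 in the proteases, glycosidases, membrane proteins and pump subunits; of each further list, the 2 highest positive and 2 lowest negative calls were named, or fewer where fewer were called. Calls on alternatives used Wald tests with Benjamini-Hochberg adjustment in Python 3.11.15 (scipy 1.17.1), tested on simulated data. GC content and length (GENCODE M21, 16795 genes) were removed by loess with span 0.3 in R 4.3.3. Promoters are RefSeq's.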

Additional observations from a re-analysis of the deposited data

How the results depend on the processing

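No paired analysis was possible because no column of counts could be tied to a replicate. For the same reason the planned fits on counts, with other normalizations, other filters or a replicate left out, were not run, and whether 1 library decides a value is not answered. When the Wald test asked for an absolute log2 fold change over 0.5, the positive calls dropped from 5 to 3 (Glb1, Manba and Tfeb). The negative calls dropped from 5 to 0, with 1 (Ctsc) at an unadjusted p-value under 0.05. The stricter question itself produces such drops. Over all genes it called 3.85% positive and 5.42% negative, against 14.6% and 15.9% before. With the authors' limit raised to 1, the genes called down dropped from 4 to 1 (Ctsc) and those called up stayed at 3. Over all genes that limit called 7.69% down and 5.59% up, against 12.1% and 9.40% at the limit of 0.5. Centring on the ribosomal protein genes raised the negative calls from 5 to 10 (22.2% of the lysosomal genes), adding Ctsd, Ctsz, Arsb, Laptm4b and Atp6v1a, while over all genes they rose from 2719 to 3508 (20.5%), and moved the median of the proton pump subunits from -0.10 to -0.19. Small values changed sign without a call: after that centring Tpp1 (-0.063), Man2b1 (-0.023), Npc1 (-0.090) and Atp6v1h (-0.069), after centring on the median of all genes Npc1 (-0.0065), and without the GC and length trend Tfe3 (0.014) and Atp6v1h (-0.047). Glb1, Manba and Tfeb kept their sign and call in 7 of 7 alternatives, with adjusted p-values up to 0.00479, 0.00171 and 8.96e-07. All of these alternatives reuse the deposited fold changes and standard errors, most of them with the fold change unchanged. They are therefore not independent checks, and signs of values this large had little room to change. The median of the 45 genes lay between -0.23 and -0.10 under the alternatives. Library depth was not analysed; the median standard error, 0.14 over the lysosomal genes and 0.39 over the 9 of them under 300 counts, limits what could be seen in the sulfatases, Naglu and Ctsh.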
